A study of Mus musculus with 6 samples.

Results

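Targets of the hypoxia-inducible factor (HIF) were examined in a single condition, embryoid bodies kept with serum from mice of a Huntington's disease model. The set consisted of the 10 genes Vegfa, Slc2a1, Pdk1, Bnip3, Egln3, Egln1, Ankrd37, Adm, Ndrg1 and Car9, chosen by name, and all 10 were found among the 19613 genes of the table. Embryoid bodies are clusters that embryonic stem cells form as they differentiate. The mouse line used here, HBG3 HB9 (HGB3 in the methods), makes green fluorescent protein under the control of Hb9 (Mnx1), so that its motor neurons are marked, and the clusters also hold other cell types. All 6 cultures received 5% serum for 24 h. Per the methods of the study, the donors were male carriers of strain B6CBA-Tg(HDexon1)62Gpb/3J at 10 weeks of age, before symptoms, which carry the start of the human huntingtin gene. The labels call the fluid plasma, and serum is the word of the title and methods. The 6 arrays form 1 group, named replicates 2, 4, 5, 6, 7 and 8, and come from 1 cell line. Arrays with control serum were not analysed here, so the values give levels and their spread between arrays, not a response to the serum. Nothing in the labels says whether the replicates differ in donor, culture or batch. The study describes 6 serum samples from this model, so the spread may include differences between sera as well as technical ones.

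HIF is a transcription factor made of an oxygen-regulated alpha subunit (Hif1a or Epas1) and a stable partner (Arnt or Arnt2). When oxygen is ample, prolyl hydroxylases of the Egln family mark the alpha subunit for destruction through the Vhl ubiquitin ligase. When oxygen falls, the alpha subunit accumulates and HIF binds short DNA elements with the core ACGTG or GCGTG near genes of glucose uptake, glycolysis, mitochondrial turnover and blood vessel growth. Egln1 and Egln3 are themselves targets, which closes a feedback loop. In the developing nervous system the pathway is best known for control of vessel growth through Vegfa and for the shift of progenitors towards glycolysis.

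The promoters of 3 members whose levels moved most closely together are shown because they display how the element core recurs upstream of such genes. Ndrg1 moved with them and has no entry in the promoter table. The sequences are from RefSeq (GRCm38.p6), run 5′ to 3′ on the strand of the gene from base -150 to base -11 before the first annotated start, and capitals mark ACGTG or GCGTG on either strand.
Bnip3, chr7:138909517-138909656, minus strand: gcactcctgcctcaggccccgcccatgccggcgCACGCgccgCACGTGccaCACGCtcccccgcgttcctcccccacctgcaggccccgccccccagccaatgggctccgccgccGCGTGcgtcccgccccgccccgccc
Slc2a1, chr4:119108595-119108734, plus strand: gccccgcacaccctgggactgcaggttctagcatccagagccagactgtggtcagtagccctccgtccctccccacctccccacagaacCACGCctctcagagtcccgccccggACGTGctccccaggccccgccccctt
Pdk1, chr2:71873074-71873213, plus strand: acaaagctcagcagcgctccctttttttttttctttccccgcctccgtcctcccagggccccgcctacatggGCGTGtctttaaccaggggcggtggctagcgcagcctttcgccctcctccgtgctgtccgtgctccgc

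In the 250 bases before the start, 6 of the 9 members with a promoter entry held ACGTG, 6 held GCGTG, and 8 held at least 1 of them, counting both strands. Over all 27025 promoters of the same length, 16.5% held ACGTG, 28.3% held GCGTG and 38.6% held either. Bnip3 held the most matches, with 2 to ACGTG and 3 to GCGTG, where the ACGTG matches are the overlapping strands of the palindrome CACGTG. Ankrd37 came next, with 2 to each core. Vegfa held none in this window. A match is a description of the letters and not evidence of binding.

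The arrays matched closely, with Pearson's r from 0.991 to 0.997 over all genes between the 15 pairs and median intensities from 296 to 311. Replicate 8 stood apart most, with the lowest average r of 0.992 and a lower quartile of intensity of 109 against 121 to 129 on the other arrays. The median pairwise r of the members and the count of their high values are therefore given with and without it. Most other correlations are not given without it. The genes that the study used as motor neuron-related were Isl1 at 10.33 ± 0.12, Olig2 at 9.0 ± 0.15, Lhx3 at 8.64 ± 0.11 and Mnx1 at 8.48 ± 0.18 (log2 intensity, SD, n = 6). All lay above the background level given next. No culture without motor neurons was analysed here, so these levels do not measure the share of motor neurons. Background was set at 7.47 on the log2 intensity scale, the 95th percentile of the olfactory receptor genes, and a gene whose mean lay higher was counted as above background. Of all genes, 65.2% passed, and 9 of the 10 members did. The culture is a mixture of cells, so fewer cells of a type and less RNA per cell cannot be told apart.

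The members spanned a wide range of intensities. Slc2a1, Vegfa, Bnip3 and Egln3 lay above more than 96% of all genes, while Adm sat at the background level and Car9 below it. These ranks order intensities and not transcript amounts, because the probes of different genes bind with different affinity. The values of single arrays are given below on the log2 intensity scale.

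**Figure D1:**
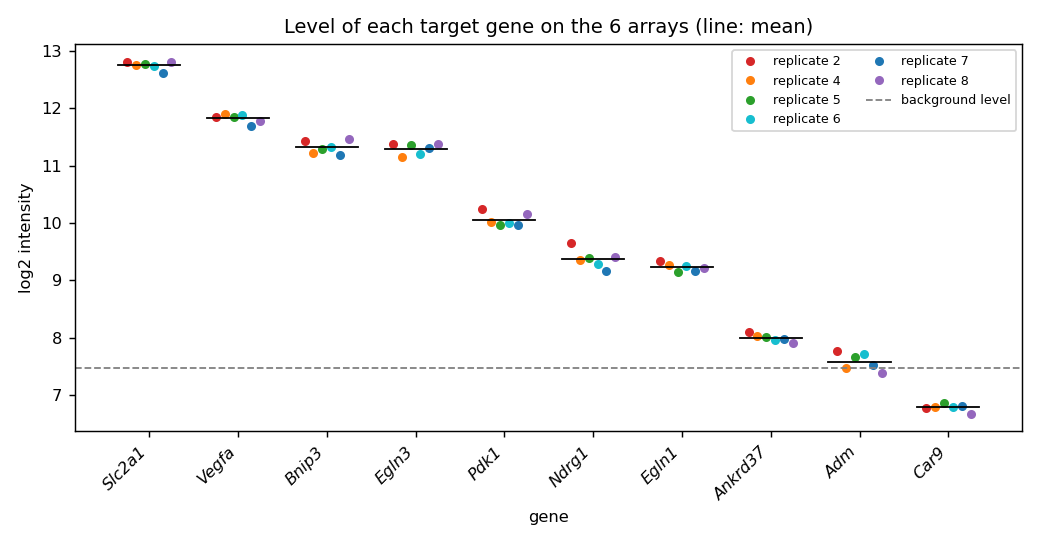
Log2 intensity of each of the 10 genes (x axis, ordered by mean) on each of the 6 arrays (coloured points, 1 per replicate), with the mean as a black line and the background level of 7.47 dashed. Slc2a1 is highest at a mean of 12.75, Adm straddles the background level and all 6 points of Car9 lie under it.

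Among genes of fuel use, Slc2a1, which encodes the glucose transporter GLUT1, had a level of 12.75 ± 0.075 (log2 intensity, SD, n = 6), above 99.5% of genes. It ranged from 12.61 in replicate 7 through a median of 12.76 to 12.81 in replicate 8. The upper 5 arrays lay close together and replicate 7 stood below them. Pdk1, a kinase that shuts pyruvate out of the mitochondrial citrate cycle by inhibiting pyruvate dehydrogenase, had a level of 10.06 ± 0.11 (log2 intensity, SD, n = 6). It ranged from 9.96 in replicate 7 through a median of 10.01 to 10.24 in replicate 2. Replicates 2 and 8 were high and the other 4 arrays were close to one another.

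Bnip3, a mitochondrial outer membrane protein that recruits the autophagy machinery to mitochondria, had a level of 11.32 ± 0.11 (log2 intensity, SD, n = 6). It ranged from 11.19 in replicate 7 through a median of 11.30 to 11.46 in replicate 8, with replicate 2 next at 11.43. The order of its arrays was thus like that of Pdk1 at both ends. Ndrg1, a stress-induced cytoplasmic protein needed for upkeep of peripheral myelin, had a level of 9.38 ± 0.16 (log2 intensity, SD, n = 6). It ranged from 9.16 in replicate 7 through a median of 9.38 to 9.65 in replicate 2, a 1.4-fold span that was the widest among the members.

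The hydroxylase genes differed in level and in their arrays. Egln3 had a level of 11.30 ± 0.095 (log2 intensity, SD, n = 6), ranging from 11.16 in replicate 4 through a median of 11.33 to 11.38 in replicate 2. Egln1, the main hydroxylase of HIF alpha subunits in normal oxygen, had a level of 9.23 ± 0.069 (log2 intensity, SD, n = 6). It ranged from 9.14 in replicate 5 through a median of 9.24 to 9.33 in replicate 2. Both were highest in replicate 2 and their lowest arrays were different. Egln2, the family member that is not a member of the set, had the steadiest level of the family at 9.32 ± 0.022 (log2 intensity, SD, n = 6).

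Of the secreted factors, Vegfa, the main growth factor for blood vessels, had a level of 11.82 ± 0.080 (log2 intensity, SD, n = 6), above 98.3% of genes. It ranged from 11.68 in replicate 7 through a median of 11.85 to 11.91 in replicate 4. Without replicate 7 its SD was 0.047, so that array supplied much of the spread. Adm, the precursor of the vasodilator peptide adrenomedullin, had a level of 7.59 ± 0.16 (log2 intensity, SD, n = 6), ranging from 7.38 in replicate 8 through a median of 7.59 to 7.77 in replicate 2. It passed the background level on 4 of the 6 arrays, so its variation lies at the limit of detection.

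Ankrd37, an ankyrin repeat protein, had a level of 8.0 ± 0.068 (log2 intensity, SD, n = 6), ranging from 7.91 in replicate 8 through a median of 7.99 to 8.11 in replicate 2. Car9, a carbonic anhydrase of the cell surface that regulates pH in hypoxic tissue, had a measured value of 6.79 ± 0.063 (log2 intensity, SD, n = 6), with 0 of 6 arrays above background. Car9 was therefore not detected above background and was left out of the counts below.

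The spread of the members was compared with that of other genes. The median SD of the 9 members above background was 0.095 on the log2 scale, against 0.076 over all genes above background. An SD over 0.1 was found in 4 of the 9 members (Pdk1, Bnip3, Adm and Ndrg1), where 31.2% of genes above background had one. The SD falls with level, so the genes above background were also cut into 4 equal bins by level. Within its own bin the SD of Ndrg1 exceeded that of 94.8% of genes, Pdk1 90.0%, Bnip3 88.9%, Egln3 84.3%, Adm 76.0%, Vegfa 74.4% and Slc2a1 69.5%, whereas Egln1 exceeded 50.8% and Ankrd37 17.8%. The spans were nevertheless small, from 1.14-fold for Egln1 to 1.4-fold for Ndrg1 between the highest and lowest array.

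**Figure D2:**
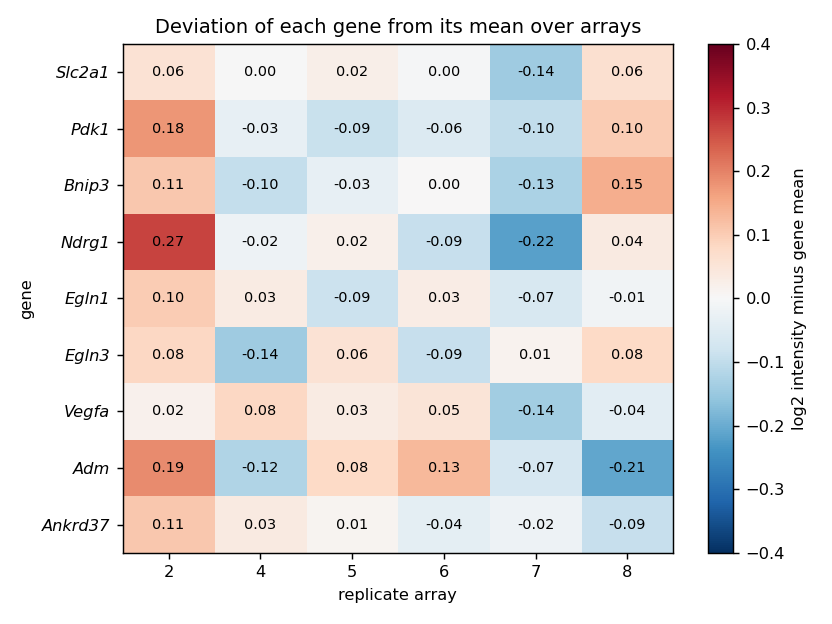
Log2 intensity minus the gene's own mean over arrays (colour and printed value) for the 9 genes above background (rows) on the 6 arrays (columns). Replicate 2 is positive for all 9 genes, replicate 7 is negative for all but Egln3, and Ndrg1 has the widest span.

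The arrays at the ends were shared by several members. Of the 9 members, 6 peaked in replicate 2, as 11.8% of genes above background did. The lowest value of 5 of the 9 came from replicate 7, against 17.9% of genes. Replicate 8, the array that stood apart over all genes, was the highest for 2 members against 27.5% of genes and the lowest for 2 members against 26.4%. After centring each gene, the mean of the 9 members deviated by 0.12 in replicate 2 and by -0.096 in replicate 7, and by between -0.029 and 0.0078 in the other 4. The difference between replicates 2 and 7 corresponds to 1.16-fold.

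Covariation was described by Pearson's r over the 6 arrays for each of the 36 pairs of members. The median r was 0.44, against -0.00055 over all pairs of genes above background, and 33 of the 36 values were positive. A median so near 0 means that positive and negative values were about equally common over all pairs. An r above 0.8 was found in 4 pairs, or 11.1%, where 5.19% of all pairs had one. The arrays carried this unequally. Without replicate 2 the median r was 0.16 and 2 pairs (5.56%) exceeded 0.8 against 8.14% of all pairs, so the surplus of high values was gone. Several positive values turned negative without that array, such as that of Pdk1 and Ankrd37, from 0.30 to -0.70. The value of Pdk1 and Bnip3 stayed at 0.86. Without replicate 8 the median was 0.59 and 9 pairs (25%) exceeded 0.8 against 6.63% of all pairs. Without replicate 7 the median was 0.30.

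**Figure D3:**
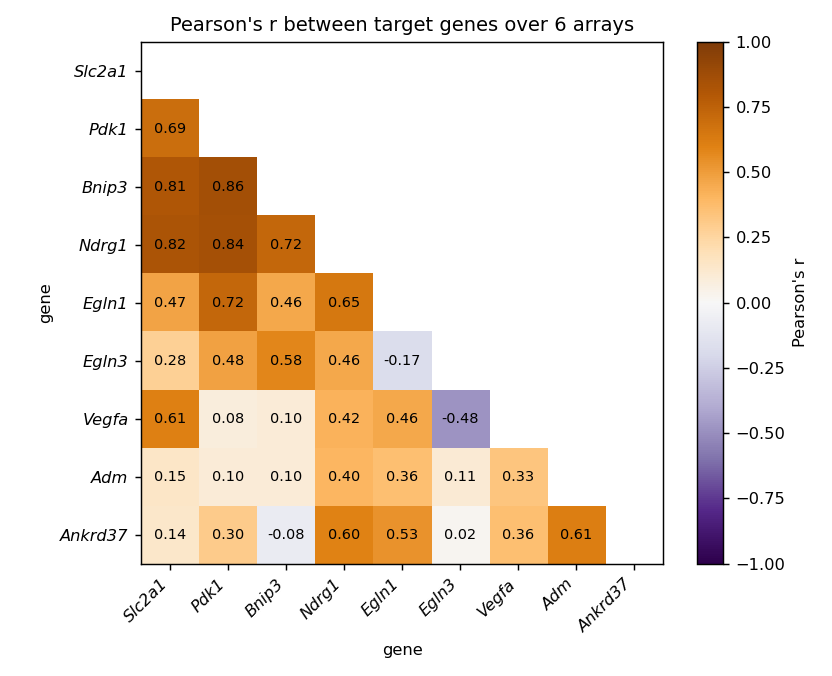
Pearson's r over the 6 arrays between each pair of the 9 genes above background (colour and printed value). The block of Slc2a1, Pdk1, Bnip3 and Ndrg1 holds values from 0.69 to 0.86, while Vegfa and Egln3 have the lowest value, -0.48.

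The 4 pairs above 0.8 lay among Slc2a1, Pdk1, Bnip3 and Ndrg1. Each member was tested against every other gene above background by an exact permutation test (two-sided, all 720 orders of the arrays), with Benjamini-Hochberg adjustment over the 12792 genes tested for that member. Pdk1 and Bnip3 had an r of 0.86 (exact p = 0.0458, adjusted p = 0.771) and a Spearman's rho of 0.77 (exact p = 0.103, adjusted p = 0.563). Once the 2 arrays with the most extreme Pdk1 levels were left out, replicates 2 and 8, r was 0.18, so the relation of this pair rested on those arrays together. With any single array left out it stayed at 0.82 or above. Pdk1 and Ndrg1 had an r of 0.84 (exact p = 0.0208, adjusted p = 0.771) and a rho of 0.83 (exact p = 0.0583, adjusted p = 0.563), and r was 0.42 without the same arrays. The value was 0.58 without replicate 2 alone.

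Slc2a1 was in both of the other pairs above 0.8. Slc2a1 and Ndrg1 had an r of 0.82 (exact p = 0.0681, adjusted p = 0.830) and a rho of 0.94 (exact p = 0.0167, adjusted p = 0.534), and r was 0.97 without replicates 7 and 8. With 1 array left out it lay between 0.74, without replicate 7, and 0.96. Slc2a1 and Bnip3 had an r of 0.81 (exact p = 0.0222, adjusted p = 0.830) and a rho of 0.83 (exact p = 0.0583, adjusted p = 0.534), and r was 0.81 without those arrays and from 0.77 to 0.89 with 1 array left out. Pdk1 and Egln1 followed with an r of 0.72 (exact p = 0.129, adjusted p = 0.771) and a rho of 0.77 (exact p = 0.103, adjusted p = 0.563), which became 0.92 without replicates 2 and 8 and 0.38 without replicate 2 alone.

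No pair passed the adjusted threshold. An unadjusted exact p under 0.05 was found for 3 of the 36 pairs, or for 1 pair by rho. Over the whole table, 0 of 12792 genes followed any of the 9 members at an adjusted p under 0.05, for Pearson's r and for rho alike (called share 0 for every member). The unadjusted exact test counted genes that moved with or against a member. By it, the share of genes was 2.75% for Egln1, 3.62% for Egln3, 3.82% for Ndrg1, 3.92% for Vegfa and 4.42% for Adm. It was 4.43% for Bnip3, 4.61% for Ankrd37, 4.85% for Slc2a1 and 5.22% for Pdk1, which is 352 genes at the low end and 668 at the high end. The r was positive for 253 of the 352 genes of Egln1, 383 of the 668 of Pdk1 and 256 of the 566 of Adm. Each share lay near or below the 0.05 that the threshold passes when genes are unrelated. The smallest p that 6 arrays can give is 0.00139, so a gene could pass the adjusted threshold only if many others also reached that value, and the count of 0 does not show that no gene follows a member.

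At the other end, Vegfa and Egln3 had an r of -0.48 (exact p = 0.342, adjusted p = 1) and a rho of -0.60 (exact p = 0.242, adjusted p = 1). Their r was -0.94 without replicates 7 and 8, the arrays in which Vegfa was lowest. Egln3 and Egln1, the hydroxylases, had an r of -0.17 (exact p = 0.740, adjusted p = 0.999) and a rho of 0.029 (exact p = 1, adjusted p = 1). Without replicates 4 and 6 their r was 0.64, and without replicate 2 alone it was -0.77, so its sign and size depended on the arrays used. The remaining low values were -0.080 for Bnip3 and Ankrd37, 0.018 for Egln3 and Ankrd37, and 0.084 for Vegfa and Pdk1, with exact p from 0.867 to 0.971. The sign of these 3 values changed when single arrays were left out.

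Each member was also set against the mean of the other 8, as a description with no p. Ndrg1 followed the rest most closely, with an r of 0.95, and 0.83 without replicate 2. Slc2a1 had 0.75, which was 0.96 without replicate 2 and 0.62 without replicate 7. Pdk1 had 0.76 and Bnip3 0.67, and these were 0.35 and 0.57 without that array. Vegfa had 0.32, which turned to -0.41 without replicate 7. Egln3 had 0.30 and Egln1 had 0.65. Without replicate 2, Ankrd37 went from 0.49 to -0.36, Adm from 0.35 to -0.24 and Egln3 to -0.11, and Egln1 had 0.12. These 4 genes thus followed the rest mainly through replicate 2, and Ndrg1 and Slc2a1 did so without it.

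The other genes of the pathway were taken from lists that did not enter the members' mean. The genes that encode HIF itself were all above background. Hif1a had a level of 11.25 ± 0.021 (log2 intensity, SD, n = 6), between 11.23 and 11.28, a narrower range than that of any member. Its r with the mean of the 9 members was 0.054, and 0.51 without replicate 2. Arnt had 9.95 ± 0.041 with an r of 0.67, and Arnt2, the partner prominent in neurons, had 10.45 ± 0.025 with an r of -0.23, or -0.39 without replicate 2 (log2 intensity, SD, n = 6). Epas1 had 7.74 ± 0.085, close to background, with an r of -0.27 that was -0.91 without replicate 2, and Hif3a, whose products include inhibitors of HIF, had 9.03 ± 0.16 with an r of -0.44. The median over the 5 subunit genes was -0.23, and 0.29 without replicate 7. Of the 5, 2 had a positive r, where 52.1% of genes above background did, and 0 exceeded 0.8, where 1.51% did.

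All 12 genes of oxygen sensing and HIF turnover were above background, and their r with the members' mean had a median of 0.058. Siah2, a ubiquitin ligase that degrades Egln proteins, had the highest r of 0.90 at a level of 9.20 ± 0.054, and Vhl followed with 0.77 at 9.68 ± 0.066 (log2 intensity, SD, n = 6). Without replicate 2 these values were 0.82 and 0.54. Egln2 had the lowest, -0.39. Several of the low values rested on 1 array. Without replicate 2, Crebbp had 0.91, Tceb2 0.84, Ep300 0.73 and Tceb1 -0.79, and the median of the 12 genes was 0.26, whereas it was -0.14 without replicate 7. Over all 6 arrays the others lay between -0.22 for Cited2, a competitor of HIF for its coactivators, and 0.37 for the coactivator Crebbp. They included Hif1an, the asparaginyl hydroxylase that blocks HIF from its coactivators, at 0.090, Cul2 at 0.15, Rbx1 at -0.13, Tceb1 at 0.16 and Tceb2 at 0.018, which are parts of the Vhl ligase, Siah1a at 0.026 and the coactivator Ep300 at -0.20.

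Genes of glucose breakdown and other known HIF targets outside the 10 moved with the members more often. Of the 18 genes of glycolysis and glucose transport, all 18 were above background, with a median r of 0.61 to the members' mean, and 15 had a positive r. Of the 24 matched other targets, 19 were above background, with a median r of 0.64, and 17 had a positive r. Over all genes above background the median r was 0.022, with quartiles of -0.26 and 0.33, and 52.1% were positive. An r above 0.8 was found in 8 of the 37 genes of both lists, against 1.51% of all genes. The median r of all genes was 0.046 in the top 1 of 4 equal bins of level. With the background at the 99th percentile of the olfactory receptors, the members' mean was taken over 7 members. The median r to that mean was then 0.14 for all genes, 0.75 for the glycolysis list and 0.71 for the other targets.

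**Figure D4:**
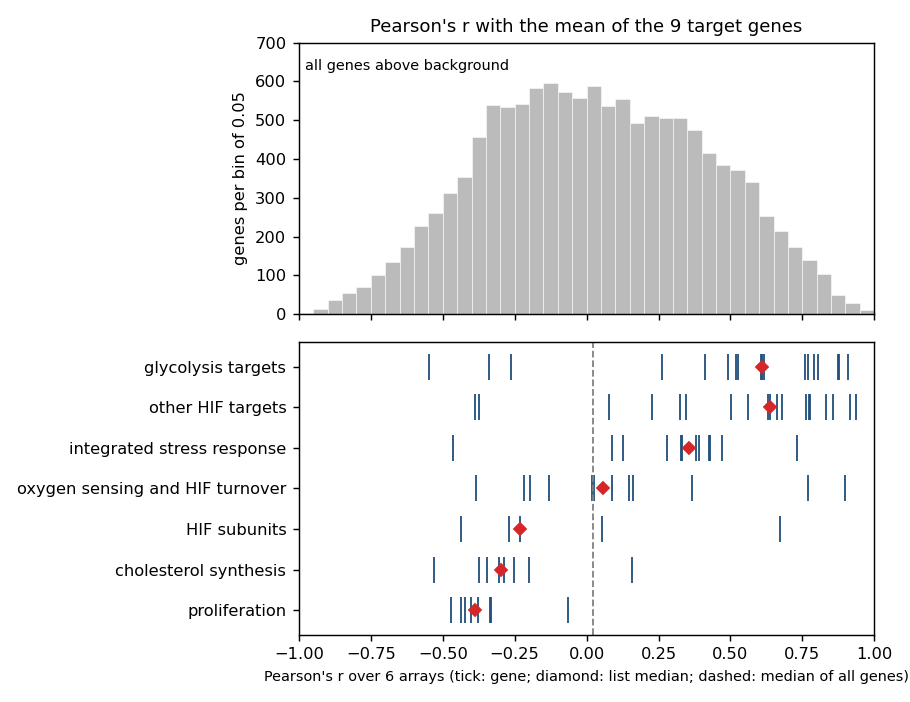
Top, number of genes above background (y axis) by Pearson's r with the mean of the 9 target genes (x axis, bins of 0.05). Bottom, the same r for each gene of 7 pathway lists (ticks) with the list median (diamond) and the median of all genes, 0.022 (dashed). The medians of the glycolysis list, 0.61, and of the other targets, 0.64, lie right of the upper quartile of all genes, 0.33.

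In the glycolysis list, Aldoc, the brain aldolase, had the highest r of 0.91 at 10.06 ± 0.11, and Pfkfb3, which makes the activator of phosphofructokinase, had 0.88 at 10.17 ± 0.14 (log2 intensity, SD, n = 6). Aldoc ranged from 9.92 in replicate 7 to 10.23 in replicate 2, and Pfkfb3 from 10.03 to 10.41 in the same arrays. Pfkfb4, of the same enzyme family as Pfkfb3, went the other way, with an r of -0.55 and its highest level of 8.35 in replicate 7. Gapdh had the next lowest r, -0.34, at 13.40 ± 0.053, and 0.095 without replicate 2. Gapdh has many near-identical pseudogenes, so its value is uncertain as to its source.

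Among the other targets, P4ha1, a collagen prolyl hydroxylase subunit, had an r of 0.94 at 11.16 ± 0.072, and the histone demethylase Kdm3a had 0.92 at 10.85 ± 0.051 (log2 intensity, SD, n = 6). Replicate 7 was the lowest and replicate 2 the highest array for both genes. The growth factor binding protein Igfbp3 had a negative r of -0.37 at 9.40 ± 0.068 (log2 intensity, SD, n = 6). The 5 targets not above background were Epo at 7.21, Car12 at 7.41, Angptl4 at 7.13, Edn1 at 6.65 and Nos2 at 6.63 (mean log2 intensity). Car12, like Car9, is a carbonic anhydrase of the cell surface. Edn1, Angptl4 and Epo act outside the cells that make them.

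Of the 37 genes, 18 were highest in replicate 2 and 23 were lowest in replicate 7, against 11.8% and 17.9% of all genes. Without replicate 2 the median r of the 37 genes to the members' mean was 0.64, and 11 exceeded 0.8 against 3.48% of genes. Without replicate 7 the median was 0.56. Leaving out replicate 2 thus left this pooled median, 0.62 over all 6 arrays, nearly as it was. On the same measure, the median r of the 9 members to their mean, of which they are part, went from 0.71 to 0.53. The lists moved in opposite directions without replicate 2, from 0.61 to 0.68 for glycolysis and from 0.64 to 0.51 for the other targets. For the glycolysis list alone the median fell to 0.38 without replicate 7.

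**Figure D5:**
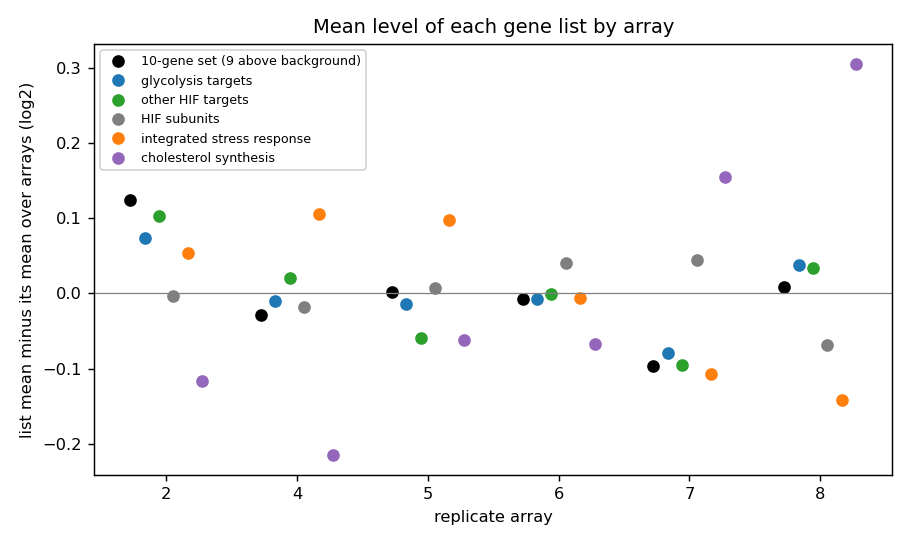
Mean log2 intensity of each gene list on each array (x axis) minus its mean over the 6 arrays (y axis, log2), over the genes of the list above background. The 9 members, the glycolysis genes and the other targets share their highest array, replicate 2, and their lowest, replicate 7. The mean of the HIF subunits is highest in replicate 7. In that array Hif1a and Arnt are at their lowest, and Epas1 and Arnt2 at their highest. The cholesterol genes have the widest range, from replicate 4 at the bottom to replicate 8 at the top.

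Vegfa is also induced by the integrated stress response, a programme of protein synthesis and amino acid stress, so its genes were set beside the members. All 12 were above background, and their mean lay between 10.49 (replicate 8) and 10.74 (replicate 4). Their median r with the members' mean was 0.36. Of the 12, 11 were positive, where 52.1% of genes above background were. The count above 0.8 was 0 of 12, which for so few genes is near the 1.51% of all genes. The highest values were 0.73 for Vldlr, a lipoprotein receptor, and 0.47 for Ppp1r15a, a phosphatase subunit of the pathway. The lowest were -0.46 for Atf4, its central transcription factor, and 0.089 for Chac1. The mean of the stress genes was highest in replicate 4, as Vegfa itself was at 11.91, whereas the mean of the members was highest in replicate 2. Replicate 7 was the next lowest array of the stress genes at 10.53, and without it their median r was 0.070. The part of this response in the values of the members was not tested.

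Markers of the cell types that such cultures can hold were set beside the members' mean. All 8 motor neuron markers were above background, with a median r of 0.059 and a mean level between 9.15 in replicate 4 and 9.30 in replicate 8. Chat, the enzyme that makes acetylcholine, had 0.78, whereas Isl2 had -0.67 and the choline transporter Slc5a7 had -0.32. Without replicate 2 the median was 0.24, Isl2 had -0.064, Olig2 went from -0.22 to 0.55 and Mnx1 from 0.23 to 0.68, so these values rested on that array.

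Endothelial cells are known to respond to Vegfa, and 2 of their 6 markers were above background. The mean of these 2 ranged from 8.02 in replicate 8 to 8.22 in replicate 2. Cdh5, an adhesion protein of vessels, had an r of 0.94 at 7.72 ± 0.10, close to background, and the receptor Tie1 had -0.14 at 8.50 ± 0.15 (log2 intensity, SD, n = 6). Pecam1, Kdr, Tek and Emcn were below background. Of the 5 matched blood markers, 1 was above background, Spi1 at 7.55 with an r of 0.083, and the mean of the 5 ranged from 6.73 to 6.91. The 4 mesenchymal markers above background, of 6, had a mean between 8.14 in replicate 8 and 8.43 in replicate 7, and r from -0.76 for the smooth muscle actin Acta2 and -0.21 for Col3a1 to -0.13 for Col1a2 and -0.011 for Col1a1. The 5 neural progenitor and glial markers above background, of 7, had a mean between 10.20 in replicate 8 and 10.37 in replicate 7. Their r was negative for all 5, from -0.61 for Fabp7 and -0.46 for Nes to -0.35 for Sox2 and -0.19 for Olig1. Over all genes above background, 52.1% had a positive r. Without replicate 2, Nes had -0.85, Olig1 0.013 and Tie1 -0.48. The part of these cell types in the values of the members was not tested.

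Outside the members, the genes above background with the highest r to the members' mean over the 6 arrays included Fgf9 at 0.99, Hivep2 at 0.98, Tcf25 at 0.98 and Atp7b at 0.97. They are the extreme of all genes above background and are named for likeness of pattern alone. Fgf9, a secreted growth factor, had a level of 8.26 ± 0.10 (log2 intensity, SD, n = 6), from 8.14 in replicate 7 to 8.44 in replicate 2. Without replicate 2 these 4 values lay between 0.90 for Atp7b and 0.98 for Fgf9.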

How the data were processed

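RNA from 6 cultures was hybridized to Affymetrix mouse exon arrays. The deposited values are linear intensities, 1 per gene and array, which the authors derived by Robust Multi-array Averaging (RMA) and averaged across the exons of each gene. The submitters' processing notes name RMA and Affymetrix Expression Console. The study removed outlying arrays by a Grubbs test, and whether these 6 had been through it is not stated. The arrays normalized together and the genome build of the exon annotation are not given in the sources used here. The table held 0 columns of other samples. Arrays give no read depth, so their number limits the precision.

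The log2 of the intensity was used, without a pseudocount. Background was the 95th percentile of the mean levels of 1032 olfactory receptor genes. Error is the SD over 6 arrays. The p-values are the share of orders of these arrays that gave a correlation at least as strong, and they cover these arrays only. With 1 group there was no test between groups. Correlations were tested by exact permutation as described with the results, on simulated data first, in Python 3.11.15 with numpy 2.4.6 and pandas 2.3.3. No p is given for means over genes. Of 121 listed genes outside the members, 119 were matched by symbol or RefSeq synonym (GRCm38.p6), and Lox and Hba-a1 were not analysed here. The members and lists were chosen with earlier results of these data known. Named genes were all members, the 5 highest and 5 lowest member pairs, the 5 genes most like the members' mean, all genes of HIF and oxygen sensing, and the 2 highest and 2 lowest of the other lists. Some genes that this rule names are not reported here. Alternatives were the 99th percentile as background, no filter, a pseudocount of 50, median centring, quantile normalization, Spearman's rho and leaving out each array.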

Additional observations from a re-analysis of the deposited data

Results flagged for a closer look

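Each set of 6 values named here was screened for an array far from the others by Dixon's test, which divides the distance between the end value and the one next to it by the range. Of 45 sets, 2 passed the critical value of 0.625, where about 2.25 would by chance. Slc2a1 was lowest in replicate 7 at a log2 intensity of 12.61, with the next array at 12.74 and a ratio of 0.66. Hif1an was highest in replicate 5 at 9.35, with the next array at 9.21 and a ratio of 0.65.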

How the results depend on the processing

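The number of members above background was 9 under median centring, quantile normalization and with each array left out. With the background at the 99th percentile, Adm and Ankrd37 dropped out and 7 were left. The median SD of the members stayed between 0.083 and 0.11. With 1 array left out, the median pairwise r ranged from 0.16 to 0.59 and the pairs above 0.8 from 2 to 9, with the low ends without replicate 2 and the high ends without replicate 8. Under the other alternatives the median r ranged from 0.31 with Spearman's rho to 0.54 with quantile normalization. The count of genes that followed a member at an adjusted p under 0.05 was 0 in every setting, which says nothing of stability, since so few arrays can hardly reach that threshold. With 1 array left out, the median r to the members' mean ranged from 0.38 to 0.68 for the glycolysis list and from 0.51 to 0.80 for the other targets. With no filter, which brings in Car9 and the targets not above background, these medians were 0.56 and 0.46, against -0.035 over all genes. Alternatives for these 2 lists, with members standardized to unit SD among them, were added after seeing the data. Median centring raised the median r of all genes to the members' mean from 0.022 to 0.23, and that of the lists to 0.71 and 0.74. Median centring left 5 members highest in replicate 2 and 4 lowest in replicate 7, and quantile normalization gave 7 and 6. Of 90 alternative values each for the mean level and the SD of single members, 4 and 6 moved beyond their error, and all 4 levels did so with the pseudocount of 50. The SD of Slc2a1 was 0.032 without replicate 7 and that of Ndrg1 0.10 without replicate 2. The causes were not tested. No paired analysis was possible because there is 1 group of arrays.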

Other observations

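Proliferation and cholesterol genes were set beside the members' mean as well. All 8 proliferation genes were above background, and 0 of 8 had a positive r with the mean of the 9 members, where 52.1% of genes did. Their values ran from -0.47 for the cyclin Ccnb1 and -0.44 for the checkpoint kinase Bub1 to -0.33 for Aurkb and -0.065 for the topoisomerase Top2a. Both ends rested on replicate 2, without which Ccnb1 had 0.14, Top2a had -0.90 and the median of the 8 genes went from -0.39 to -0.21. Their mean was 10.50 ± 0.026 (log2 intensity, SD, n = 6), with its lowest array in replicate 2 and its highest in replicate 7. Of the 8 cholesterol genes, 1 had a positive r, Sqle at 0.16, and Fdft1 had -0.37. The median of the cholesterol genes was -0.30, and -0.11 without replicate 2.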
